A study of Mus musculus with 16 samples.

Results

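Scgb1a1, Scgb3a1, Scgb3a2, Cyp2f2, Cbr2, Gabrp, Muc5b and Bpifa1 are 8 genes that mark the club and secretory cells of the airway. Their RNA was followed across 16 arrays of mouse alveolar epithelial type II (AT2) cell RNA. The genes were taken by symbol, 8 of 20725 measured, and were represented by 28 array features. Scgb1a1 and Scgb3a1 had 10 features each, Scgb3a2 and Cbr2 had 2 each, and the other 4 genes had 1 each. Where a gene had several features, the one with the highest mean over the 16 arrays stood for it. Values are normalized log2 intensities, so a difference of 1 is a 2-fold difference in signal.

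The samples came from pups taken on postnatal day 3. Hyperoxia pups were kept in a chamber with 85% oxygen from day 0 to day 3, and normoxia pups were not. By the titles, there were 2 Fgf10+/- hyperoxia, 6 wild-type hyperoxia, 4 Fgf10+/- normoxia and 4 wild-type normoxia samples, whereas the series text gives 4 per group, and the titles were followed. Fgf10+/- pups carry 1 altered copy of Fgf10, which encodes a growth factor that mesenchymal cells of the lung send to the epithelium. The sources used here do not say how the cells were sorted, how many animals a sample holds, or whether samples came from separate animals, so p-values measure the spread between these samples only. Precision is limited by the number of arrays, which was lowest for Fgf10+/- hyperoxia.

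Club cells are secretory cells of the bronchiolar epithelium. They release secretoglobins into the airway lining fluid, carry cytochromes and reductases that metabolise inhaled compounds, and can give rise to ciliated cells. Mucous secretory cells, which share the airway epithelium with them, make gel-forming mucins and antimicrobial proteins. AT2 cells lie further out, in the alveoli, and make surfactant.

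Surfactant genes, the defining markers of AT2 cells, were bright in all groups, and so were genes of other cell types. Sftpc, which encodes surfactant protein C, lay within 0.1 of the highest value of its array on 16 of 16 arrays. The median of 14 AT2 genes ranged from 9.94 to 11.42 in Fgf10+/- hyperoxia, from 10.42 to 11.35 in wild-type hyperoxia, from 10.58 to 11.42 in Fgf10+/- normoxia and from 11.19 to 11.67 in wild-type normoxia. A feature within 0.1 of the top of its array has little room to be higher. Scgb1a1 was that close to the top on 12 of 16 arrays and Cbr2 on 10 of 16, so differences of these 2 genes may be compressed. Over the 16 arrays Hba-a1 of red cells averaged 15.4, Col1a2 of fibroblasts 13.2 and Egfl7 of endothelium 12.5, so the values do not show how pure the AT2 cells were. Fgf10 itself was dim, at 4.76 to 5.38 in Fgf10+/- hyperoxia, 4.71 to 5.45 in wild-type hyperoxia, 4.02 to 4.77 in Fgf10+/- normoxia and 4.27 to 5.89 in wild-type normoxia, and did not separate the genotypes (limma adjusted p = 0.961 in normoxia). The median of all values was 4.34, and no detection flag came with the data, so a value near it may be background.

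RefSeq promoters were at hand for 5 of the 8 genes, read here as the 250 bases before the transcription start in GRCm38.p6. Those of 3 genes are shown, because Scgb3a1 varied most between arrays of a group, Cyp2f2 varied less, and Bpifa1 had separate hyperoxia and normoxia values in Fgf10+/- pups. Capitals mark matches to CAAGTG (the core read by NKX2 factors such as NKX2-1), TNTTTAC (forkhead factors) or CAGGAAG (ETS factors of the ELF3 and EHF kind), searched on both strands together with TTGCNNAA (C/EBP factors).
Scgb3a1 (chr11:49663345-49663594, + strand): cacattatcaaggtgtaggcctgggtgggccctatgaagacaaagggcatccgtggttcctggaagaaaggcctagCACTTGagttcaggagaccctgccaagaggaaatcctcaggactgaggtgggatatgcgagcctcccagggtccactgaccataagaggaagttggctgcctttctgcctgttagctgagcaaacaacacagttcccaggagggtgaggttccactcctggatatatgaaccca
Cyp2f2 (chr7:27119705-27119954, + strand): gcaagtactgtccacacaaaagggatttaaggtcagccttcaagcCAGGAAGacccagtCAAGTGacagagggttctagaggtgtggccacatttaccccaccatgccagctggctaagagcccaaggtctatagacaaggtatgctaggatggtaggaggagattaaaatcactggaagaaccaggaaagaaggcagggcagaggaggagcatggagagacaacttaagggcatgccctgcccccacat
Bpifa1 (chr2:154142630-154142879, + strand): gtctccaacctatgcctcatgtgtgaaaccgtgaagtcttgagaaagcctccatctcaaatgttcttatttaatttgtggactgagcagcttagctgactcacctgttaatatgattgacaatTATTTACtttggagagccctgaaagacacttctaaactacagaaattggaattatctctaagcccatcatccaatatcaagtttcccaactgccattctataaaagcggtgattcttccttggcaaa
The Scgb3a1 promoter held 1 NKX2 match, on the reverse strand, at -174 to -169. That of Cyp2f2 held an NKX2 match at -191 to -186 and an ETS match at -205 to -199, and that of Bpifa1 a forkhead match at -127 to -121. None of these motifs overlapped another. Among 32851 promoters of the same length, 11.6% held CAAGTG, 10.9% TNTTTAC, 9.56% TTGCNNAA and 10.8% CAGGAAG on either strand, so such matches are common. The promoters of Cbr2 and Gabrp held none of the 4, which says only that these letters are not in this window.

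Scgb3a1, a small secreted protein of the secretoglobin family made by airway secretory cells, was the most variable member. It measured 8.04 and 12.71 in Fgf10+/- hyperoxia. In wild-type hyperoxia it measured 6.37 at the lowest, 10.84 at the median and 15.19 at the highest. Under normoxia the values were 15.29, 14.85, 15.78 and 15.78 in Fgf10+/- pups, against 12.46, 13.47, 15.78 and 15.19 in wild-type pups. Both Fgf10+/- hyperoxia arrays lay below all 4 Fgf10+/- normoxia arrays, while the wild-type hyperoxia arrays ran from far below the wild-type normoxia arrays to inside their range. The 6 wild-type hyperoxia arrays spanned a 453-fold range of signal. The spread between arrays was wider than that between spots: the 10 Scgb3a1 features differed from each other by 0.357 to 0.871 within an array, with a residual SD of 0.106 after array and feature means were removed, against an SD of 3.09 between array means.

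Muc5b, the gel-forming mucin that airways make at rest, followed the same arrays. Its values were 6.78 and 9.07 in Fgf10+/- hyperoxia, and 4.85, 7.65 and 12.20 at the lowest, median and highest in wild-type hyperoxia. Fgf10+/- normoxia arrays gave 12.99, 12.10, 13.25 and 13.36, and wild-type normoxia arrays gave 8.53, 9.73, 13.82 and 11.97. All Fgf10+/- normoxia arrays were high and close together, and every other group was spread over more than 2 log2 units. The Fgf10+/- groups did not overlap, and the wild-type groups did.

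Bpifa1, a secreted antimicrobial and surface-active protein of the upper airways, measured 3.82 and 5.57 in Fgf10+/- hyperoxia. Wild-type hyperoxia arrays ran from 2.60 through a median of 5.61 to 8.39. Normoxia values were 7.84, 7.52, 8.43 and 9.39 in Fgf10+/- pups, and 4.50, 7.36, 6.79 and 7.90 in wild-type pups. Again both Fgf10+/- hyperoxia arrays were below the Fgf10+/- normoxia arrays, and the wild-type groups overlapped. The lowest Bpifa1 values are below the median of all values, where signal and background were not separated.

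Scgb3a2, a secretoglobin of the bronchiolar epithelium, moved over a smaller range. It stood at 9.87 and 11.52 in Fgf10+/- hyperoxia, and at 9.26, 10.85 and 12.56 at the lowest, median and highest in wild-type hyperoxia. The normoxia arrays gave 11.67, 11.13, 12.65 and 12.64 in Fgf10+/- pups, against 10.57, 12.36, 12.12 and 11.79 in wild-type pups. Groups overlapped in both genotypes. Gabrp, the pi subunit of the GABA type A receptor, was dim throughout. It measured 5.96 and 5.78 in Fgf10+/- hyperoxia, 4.54, 6.26 and 7.42 at the lowest, median and highest in wild-type hyperoxia, 7.05, 5.79, 7.23 and 7.53 in Fgf10+/- normoxia and 5.46, 6.64, 6.87 and 6.68 in wild-type normoxia. Replicate 2 of Fgf10+/- normoxia lay inside the hyperoxia range, and the wild-type groups overlapped.

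The metabolic members were bright and steadier. Cyp2f2, the club cell cytochrome that activates naphthalene, measured 13.84 and 14.70 in Fgf10+/- hyperoxia and 12.72, 14.20 and 15.03 at the lowest, median and highest in wild-type hyperoxia. Its normoxia values were 14.61, 13.82, 14.88 and 14.59 in Fgf10+/- pups and 13.32, 14.90, 14.97 and 14.40 in wild-type pups. The groups overlapped almost fully. Cbr2, a carbonyl reductase abundant in mouse lung, measured 15.62 and 15.94 in Fgf10+/- hyperoxia, 14.75, 15.85 and 15.97 at the lowest, median and highest in wild-type hyperoxia, 15.78, 15.91, 15.97 and 15.94 in Fgf10+/- normoxia and 15.75, 15.97, 15.96 and 15.97 in wild-type normoxia. Scgb1a1, the secretoglobin by which club cells are usually recognised, gave 15.75 and 15.91 in Fgf10+/- hyperoxia, 15.13, 15.88 and 15.94 at the lowest, median and highest in wild-type hyperoxia, 15.97, 15.95, 15.94 and 15.89 in Fgf10+/- normoxia and 15.96, 15.94, 15.98 and 15.96 in wild-type normoxia. Most arrays were at the top of the scale for both genes, and wild-type hyperoxia replicates 1 and 5 were furthest below it. The second Cbr2 feature, further from the top, ran from 11.75 to 14.72 over the 16 arrays, a 7.82-fold range against 2.33-fold for the brighter one.

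**Figure D1:**
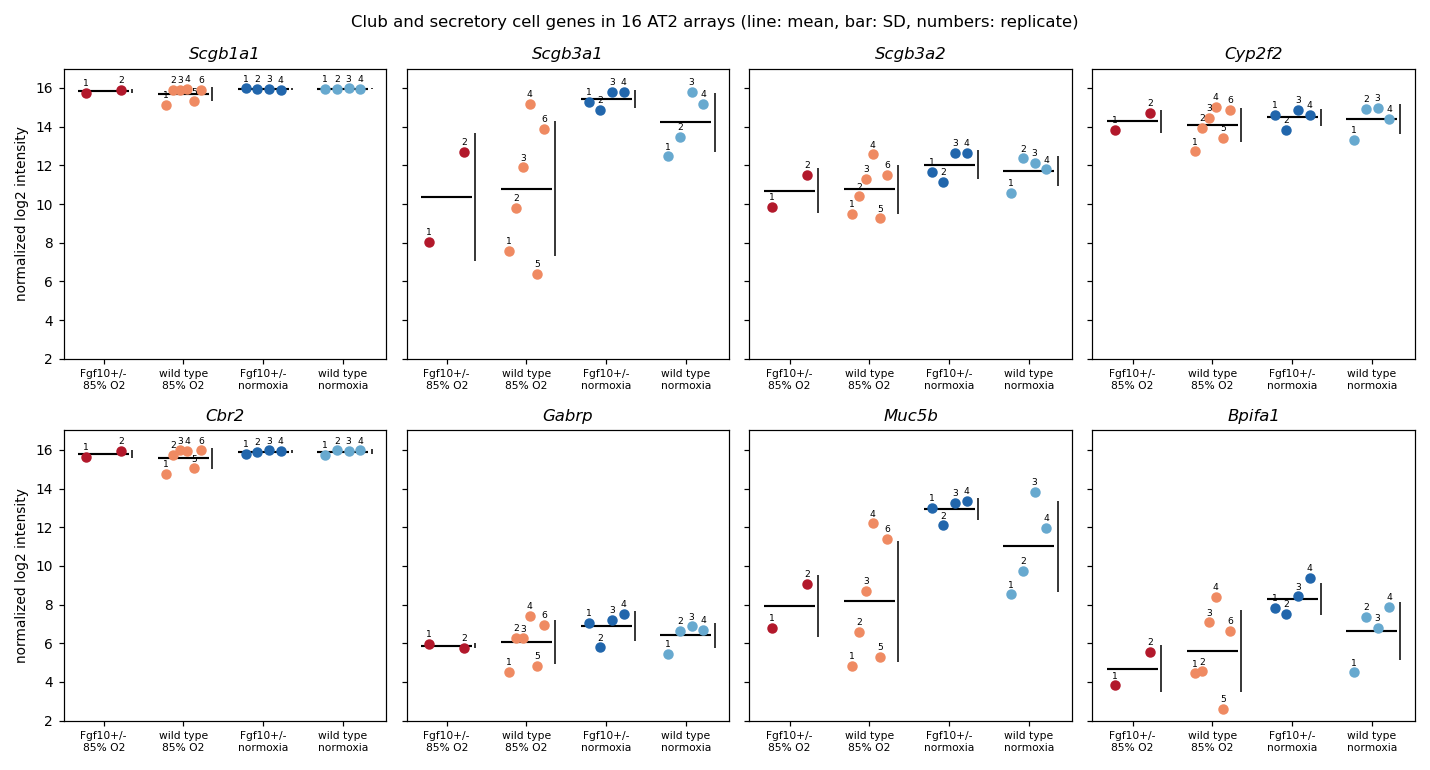
Normalized log2 intensity of the 8 genes, 1 panel per gene, with 1 point per array labelled by replicate, the group mean as a line and the SD as a bar beside it. Scgb3a1, Muc5b and Bpifa1 spread over several log2 units, above all in wild-type hyperoxia (6.37 to 15.19 for Scgb3a1), while Scgb1a1 and Cbr2 sit at the top of the scale.

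The spread between arrays of the same group was very uneven among the 8 genes. The SD within groups, pooled over the 4 groups, was 2.58 for Scgb3a1, the highest of 20725 genes, and 2.40 for Muc5b, the third highest. Bpifa1 had 1.65 and ranked 13, Scgb3a2 had 1.04 and ranked 148, Gabrp had 0.89 and ranked 438, and Cyp2f2 had 0.75 and ranked 1218. Cbr2 had 0.36 and Scgb1a1 had 0.24, both below the median of 0.43 over all genes, and both were near the top of the scale. Of all genes, 201 had an SD over 1 and 6 an SD over 2. Reg3g, an antimicrobial lectin of mucosal epithelia, ranked second with 2.56.

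**Figure D2:**
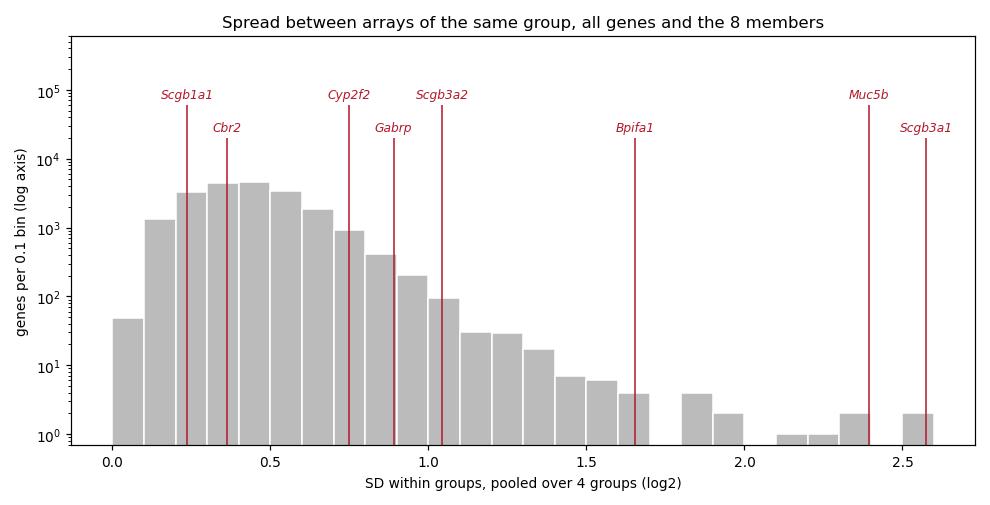
Number of genes per bin of pooled within-group SD (log2 units, log count axis), with the 8 genes marked by lines. Scgb3a1 (2.58) and Muc5b (2.40) lie at the far right, and Scgb1a1 (0.24) and Cbr2 (0.36) left of the median gene.

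Hyperoxia in Fgf10+/- pups was compared with normoxia in the same genotype. All 8 genes were lower on average, with a median change of -1.18 against -0.04 over all genes, and 0 of 8 passed an adjusted p of 0.05 (limma, Benjamini-Hochberg over all genes), where 2.45% of all genes did. Unadjusted p was under 0.05 for 3 of 8, against 16.7% of all genes. Scgb3a1 averaged 10.37 ± 3.30 (SD, n = 2) in Fgf10+/- hyperoxia and 15.43 ± 0.45 (SD, n = 4) in Fgf10+/- normoxia, a log2 change of -5.05 (SE 1.92, limma adjusted p = 0.189), which is 33.2-fold lower. For Muc5b the means were 7.92 ± 1.62 in hyperoxia and 12.93 ± 0.57 in normoxia, a change of -5.00 (SE 1.78, limma adjusted p = 0.164), and for Bpifa1 they were 4.69 ± 1.24 and 8.29 ± 0.82, a change of -3.60 (SE 1.24, limma adjusted p = 0.149). These 3 genes were also the ones whose groups did not overlap, 3 of 8 against 13.6% of all genes in that direction. Their exact permutation p, two-sided, was 0.133 each, the smallest that 2 against 4 samples can give.

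The change rested on few arrays. Leaving out Fgf10+/- hyperoxia replicate 2 gave -7.39 for Scgb3a1, and leaving out replicate 1 gave -2.72. When only the 2 groups compared were fitted, Muc5b (limma adjusted p = 0.0107) and Bpifa1 (0.0332) passed the threshold and Scgb3a1 did not (0.0636). The share of all genes called in that fit is not given here, so these calls have no background beside them. Changes of the other 5 genes ran from -1.32 for Scgb3a2 and -1.03 for Gabrp to -0.20 for Cyp2f2, -0.12 for Cbr2 and -0.11 for Scgb1a1, with limma adjusted p between 0.435 and 0.906. The second Cbr2 feature went the other way, at 0.43.

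Hyperoxia in wild-type pups was compared with normoxia in the same way. All 8 genes were lower on average here too, with a median of -0.67 against -0.08 over all genes, and 0 of 8 passed the adjusted threshold, where 3.13% of all genes did by limma. Unadjusted p was under 0.05 for 2 of 8, against 18.2% of all genes. Scgb3a1 averaged 10.78 ± 3.49 (SD, n = 6) in wild-type hyperoxia and 14.23 ± 1.53 (SD, n = 4) in wild-type normoxia, a change of -3.44 (SE 1.43, limma adjusted p = 0.208) or 10.9-fold lower. Muc5b averaged 8.17 ± 3.12 in hyperoxia and 11.01 ± 2.35 in normoxia, a change of -2.84 (SE 1.33, limma adjusted p = 0.269). The wild-type groups overlapped for 8 of 8 genes, against 4.02% of all genes that lay apart in the lower direction. The other changes were -1.01 for Bpifa1, -0.96 for Scgb3a2, -0.37 for Gabrp, -0.34 for Cbr2, -0.32 for Cyp2f2 and -0.29 for Scgb1a1, with limma adjusted p between 0.414 and 0.760. The lowest exact permutation p was 0.0190, two-sided, for Scgb1a1, which became 0.610 after Benjamini-Hochberg adjustment over 32 such tests. The smallest p that 6 against 4 samples can give in this test is 0.00952. Even that, for 1 gene alone, could not pass 0.05 after adjustment over 32 tests. Over the 10 Scgb3a1 features the wild-type change ran from -3.44 to -3.08.

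**Figure D3:**
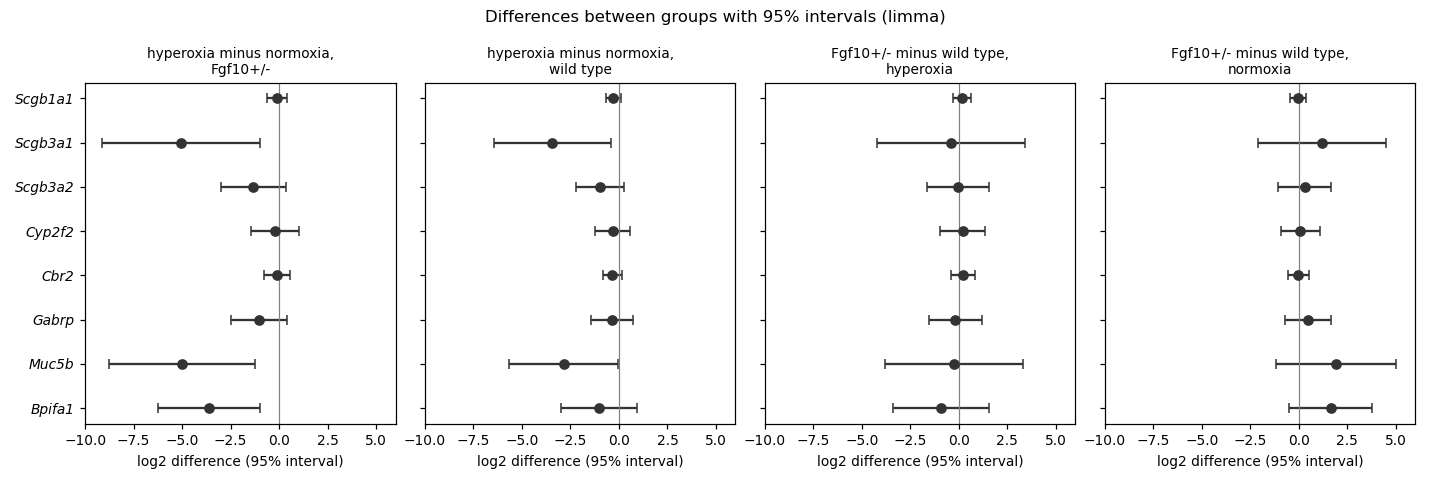
Log2 differences between groups for the 8 genes with 95% intervals from limma, hyperoxia minus normoxia in each genotype and Fgf10+/- minus wild type under hyperoxia and under normoxia. The intervals of Scgb3a1 and Muc5b exclude 0 in both hyperoxia comparisons and that of Bpifa1 in Fgf10+/- pups only, though none passed the adjusted threshold.

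Genotype made no difference that passed a test. In normoxia, 6 of 8 genes were higher in Fgf10+/- than in wild-type pups, with a median of 0.40, and 0 of 8 passed by limma, where 0.00965% of all genes did. Unadjusted p was under 0.05 for 0 of 8, against 6.03% of all genes, and groups did not overlap for 0 of 8 (2.04% of all genes lay apart lower and 1.42% higher). The widest differences were Muc5b, at 12.93 ± 0.57 in Fgf10+/- and 11.01 ± 2.35 in wild-type normoxia (1.91, 95% interval -1.17 to 5.00), Bpifa1 (1.66, interval -0.48 to 3.80) and Scgb3a1 (1.20, interval -2.11 to 4.51). The second Cbr2 feature, further from the top of the scale, differed by -0.90 in normoxia, against -0.01 for the brighter feature that was counted. In hyperoxia, 3 genes were higher and 5 lower in Fgf10+/- pups, with a median of -0.11. There too 0 of 8 passed by limma, where 0% of all genes did, and unadjusted p was under 0.05 for 0 of 8, against 4.37% of all genes. Scgb3a1 differed by -0.41 between the genotypes in hyperoxia, with an interval of -4.23 to 3.42 that leaves room for large differences either way.

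Whether hyperoxia changed these genes differently in the 2 genotypes was tested as an interaction. The hyperoxia change was lower in Fgf10+/- than in wild-type pups for 5 of 8 genes, with a median interaction of -0.51, and 0 of 8 passed by limma, where 0.00965% of all genes did. No unadjusted p was under 0.05 (0 of 8, against 4.11% of all genes). Bpifa1 had the largest value, -2.59 (SE 1.54), then Muc5b with -2.16 (SE 2.22) and Scgb3a1 with -1.61 (SE 2.39). For 5 genes, Scgb3a1, Scgb3a2, Gabrp, Muc5b and Bpifa1, the group means had 1 order: Fgf10+/- hyperoxia lowest, then wild-type hyperoxia, wild-type normoxia and Fgf10+/- normoxia. No neighbours in that order differed by the adjusted test. Scgb1a1 and Cbr2 were lowest in wild-type hyperoxia and highest in wild-type normoxia, and Cyp2f2 was lowest in wild-type hyperoxia and highest in Fgf10+/- normoxia.

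In several groups the same arrays were lowest for most of these genes. Among 6 wild-type hyperoxia arrays, replicates 1 and 5 were the lowest pair for 8 of 8 genes and replicate 4 was the highest for 7 of 8. Among 4 wild-type normoxia arrays, replicate 1 was the lowest for 7 of 8. Fgf10+/- normoxia replicate 2 was the lowest of its group for 6 of 8, and Fgf10+/- hyperoxia replicate 1 was below replicate 2 for 7 of 8. The exception was Gabrp. The highest normoxia array was less fixed: in Fgf10+/- pups it was replicate 4 for 4 genes, replicate 3 for 3 and replicate 1 for 1, and in wild-type pups replicate 3 for 5, replicate 4 for 2 and replicate 2 for 1.

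Deviations from the group mean were correlated across the 16 arrays for the 28 pairs of the 8 genes, with p from 100000 permutations within groups. Pearson's r was above 0 for 28 of 28 pairs, from 0.615 for Scgb1a1 with Bpifa1 to 0.959 for Scgb1a1 with Cbr2, with a median of 0.818. Spearman's rho ran from 0.490 to 0.973. After Benjamini-Hochberg adjustment over the 28 pairs, 26 passed 0.05 by r and 25 by rho. Without the 2 arrays farthest from the median, r ran from 0.438 to 0.931. Scgb3a1 and Muc5b had r = 0.945 and rho = 0.973 (permutation, adjusted p = 0.000933 and 0.00112), and r = 0.931 without the 2 farthest arrays. Scgb3a2 and Cyp2f2 had r = 0.922 and rho = 0.909. Scgb3a2 lay 3.33 to 6.73 below the top of its array, and Cyp2f2 0.95 to 3.26 below it. In bulk RNA, fewer airway cells in a sample and less RNA of these genes per cell cannot be told apart.

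**Figure D4:**
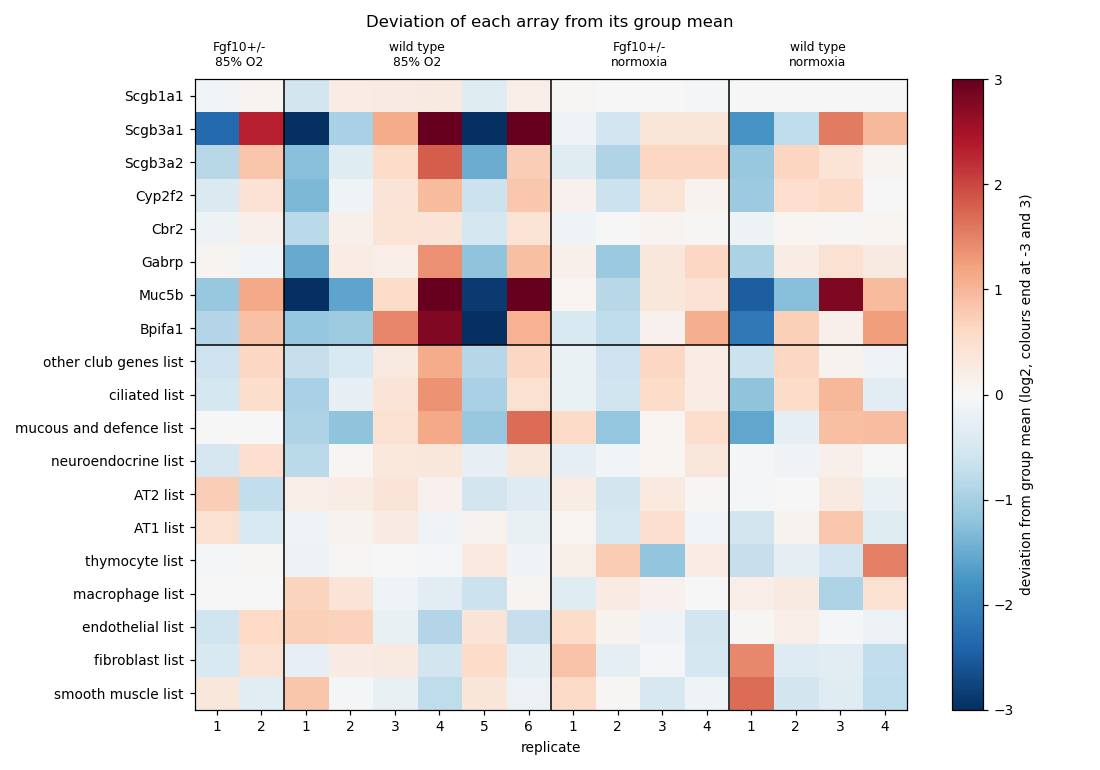
Deviation of each array from its group mean (colour, log2 units, ending at -3 and 3) for the 8 genes above the line and for the medians of 11 cell type lists below it, with arrays as columns grouped by sample group. Wild-type hyperoxia replicates 1 and 5 are low and replicates 4 and 6 high over the 8 genes, the other club genes and the ciliated list, and the AT2 list does not follow them.

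Ciliated cell genes, which mark the other main cell type of the bronchiolar surface, moved with the 8 genes from array to array. The median of 15 ciliated genes ranged from 6.21 to 7.27 in Fgf10+/- hyperoxia, 5.48 to 7.80 in wild-type hyperoxia, 7.23 to 8.38 in Fgf10+/- normoxia and 6.25 to 8.45 in wild-type normoxia. It was lowest, at 5.48, in wild-type hyperoxia replicates 1 and 5 and highest there, at 7.80, in replicate 4, the arrays at the ends of the range for the 8 genes. Its within-group correlation with them ran from r = 0.619 for Scgb1a1 to 0.947 for Scgb3a2, and 8 of 8 passed by r and 7 of 8 by rho (permutation, Benjamini-Hochberg over 112 tests of 8 genes with 14 lists). Foxj1, the factor that switches on motile cilia genes, measured 7.25 and 7.91 in Fgf10+/- hyperoxia, 6.73 to 9.35 in wild-type hyperoxia, 8.11 to 9.39 in Fgf10+/- normoxia and 7.46 to 9.05 in wild-type normoxia, and its change did not pass in either genotype (limma adjusted p = 0.250 in Fgf10+/- and 0.503 in wild-type pups).

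Of the 15 ciliated genes, 10 were lower and 5 higher under hyperoxia in Fgf10+/- pups, and 12 were lower and 3 higher in wild-type pups. The single call in each was Mcidas, a regulator of multiciliated cell fate, which rose by 3.41 in Fgf10+/- and 3.92 in wild-type pups (limma adjusted p = 0.00519 and 7.9e-05). It averaged 12.49 in Fgf10+/- and 12.62 in wild-type hyperoxia, against 9.08 and 8.70 in normoxia. Unlike the ciliated median, Mcidas had a negative within-group r with Scgb3a1 (-0.588) and Cyp2f2 (-0.580). In which cells it rose was not tested. Over all genes, 2.45% were called in Fgf10+/- and 3.13% in wild-type pups. With the ciliated median as a covariate, a fit added after the data were seen, the hyperoxia change of Scgb3a1 was -2.25 in Fgf10+/- and -0.82 in wild-type pups, and that of Muc5b was -2.36 and -0.37. What part the ciliated genes have in the results for the 8 genes was not tested.

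**Figure D5:**
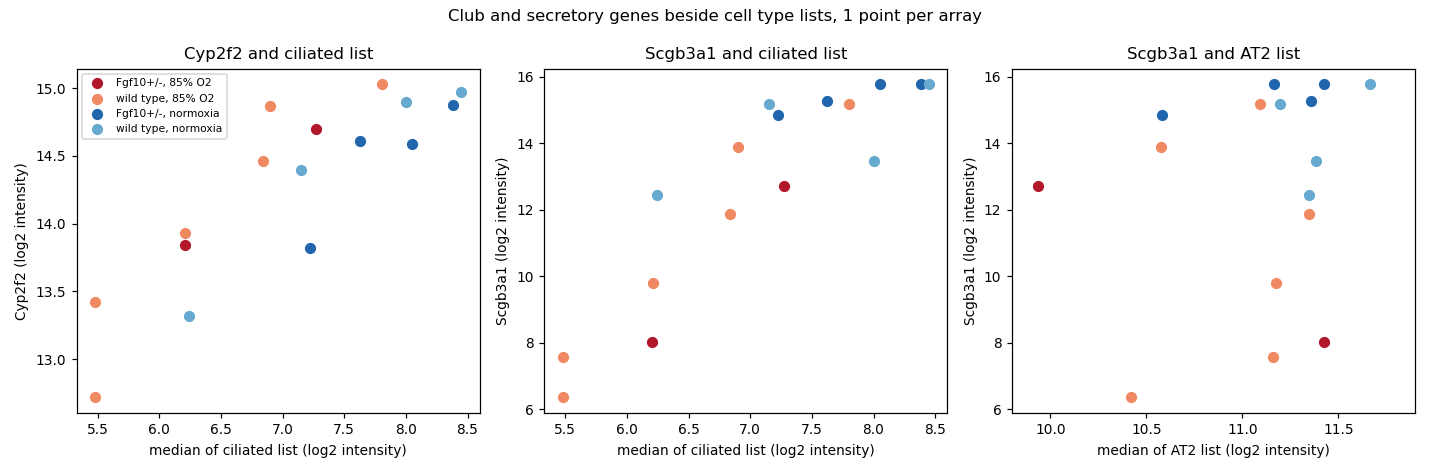
Cyp2f2 and Scgb3a1 (log2 intensity) against the median of the ciliated list, and Scgb3a1 against the median of the AT2 list, with 1 point per array coloured by group. Both genes are higher where the ciliated median is higher (within-group r = 0.938 and 0.839), and Scgb3a1 shows no such relation with the AT2 median (r = -0.10).

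Other cell type lists moved with the 8 genes to different degrees. The AT2 median had r between -0.10 and 0.28 with them, and 0 of 8 passed by r or rho. The same count was 0 by r and rho for 10 alveolar type I, 6 basal, 10 macrophage and 10 thymocyte genes. The basal median was dim, at 4.82 to 5.21 in Fgf10+/- and 4.35 to 5.13 in wild-type hyperoxia. In normoxia it was 5.47 to 6.57 in Fgf10+/- and 5.00 to 5.90 in wild-type pups. The 2 brightest basal genes differed, with r = 0.937 for Krt15 and -0.278 for Trp63 with Cyp2f2. The median of 10 smooth muscle and pericyte genes ran opposite to the 8 genes, with r from -0.79 to -0.45 (8 of 8 by r, 7 by rho). It ranged from 6.42 to 7.12 in Fgf10+/- hyperoxia, 6.26 to 7.85 in wild-type hyperoxia, 5.08 to 6.13 in Fgf10+/- normoxia and 5.46 to 7.91 in wild-type normoxia, and its highest values were in wild-type normoxia replicate 1 and wild-type hyperoxia replicate 1. Endothelial genes (10) and fibroblast genes (10) had negative r with 8 of 8 members and passed for 0 by r and 1 by rho, and 5 erythroid genes passed for 2 by r and 1 by rho. Neuroendocrine genes (7), which mark a rare airway cell type, had r from 0.637 to 0.843 and passed for 7 of 8. Their median was dim, at 4.74 to 5.73 in Fgf10+/- hyperoxia and 4.20 to 5.35 in wild-type hyperoxia. It was 4.85 to 5.48 in Fgf10+/- normoxia and 5.08 to 5.34 in wild-type normoxia. These levels are near the median of all values (4.34), where signal and background were not separated.

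Counts under hyperoxia are given here for 4 of these lists, none of which was tested as a list. Over all genes, limma called 2.45% in Fgf10+/- and 3.13% in wild-type pups. Endothelial genes were higher under hyperoxia for 10 of 10 in both genotypes, and Cldn5 (2.08) and Egfl7 (2.46) were called in Fgf10+/- pups (limma adjusted p = 0.0174 and 0.00714). None was called in wild-type pups. Unadjusted p was under 0.05 for 7 of 10 in Fgf10+/- pups, against 16.7% of all genes, and for 3 of 10 in wild-type pups, against 18.2%. The endothelial median ranged from 7.59 to 8.78 in Fgf10+/- hyperoxia, 7.37 to 8.97 in wild-type hyperoxia, 6.39 to 7.48 in Fgf10+/- normoxia and 7.57 to 7.95 in wild-type normoxia. Smooth muscle and pericyte genes were higher for 8 of 10 in both genotypes with 0 called by limma (3 of 10 had an unadjusted p under 0.05 in Fgf10+/- pups, against 16.7% of all genes, and 2 of 10 in wild-type pups, against 18.2%). Thymocyte genes were lower for 9 of 10 in Fgf10+/- and 10 of 10 in wild-type pups with 0 called by limma (4 and 3 of 10 with an unadjusted p under 0.05, against the same shares of all genes). The thymocyte median was 4.21 to 4.31 in Fgf10+/- hyperoxia, 4.04 to 4.52 in wild-type hyperoxia, 4.32 to 6.27 in Fgf10+/- normoxia and 4.25 to 6.44 in wild-type normoxia. Of the 6 basal genes, 5 were lower in both genotypes and Krt17 was called in Fgf10+/- pups (-2.10, limma adjusted p = 0.0480). Krt17 measured 3.37 and 4.02 in Fgf10+/- hyperoxia, below the median of all values (4.34), so these values may be background. In Fgf10+/- normoxia it measured 4.91 to 6.30. The part of these lists in the results for the 8 genes was not tested.

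Other club cell genes followed Cyp2f2 closely from array to array. Of 23 measured genes, 17 had a within-group r over 0.8 with Cyp2f2, 20 passed by r and 20 by rho (permutation, Benjamini-Hochberg over 23), and the median r was 0.922. The share of all genes with such an r is not given here. The ciliated median had r = 0.938 with Cyp2f2, so a close r with it was not particular to club genes. The closest were Gsto1, a glutathione transferase (r = 0.990, rho = 0.991), and the retinal dehydrogenase Aldh1a1 (r = 0.980, rho = 0.982). Adh7, Sult1d1 and Scgb1c1 did not follow it, with r of 0.03, -0.06 and 0.20.

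Under hyperoxia 17 of 23 of these club genes were lower and 6 higher in each genotype. The median change was -0.23 in Fgf10+/- and -0.38 in wild-type pups, against -0.04 and -0.08 over all genes. A fall of this size was not particular to club genes. Of 14 AT2 genes, 12 were lower and 2 higher in each genotype, with 0 called by limma. Their median change was -0.34 in Fgf10+/- and -0.41 in wild-type pups. Of all genes, 2.45% were called in Fgf10+/- and 3.13% in wild-type pups. Chad, a matrix protein of the leucine-rich repeat family, was the single club gene of this list called in each comparison. It measured 4.43 and 5.16 in Fgf10+/- hyperoxia, against 7.28 to 8.40 in Fgf10+/- normoxia, and fell by 3.21 (SE 0.71, limma adjusted p = 0.0262). In wild-type pups it measured 4.49 to 7.05 in hyperoxia and 6.02 to 8.98 in normoxia, and fell by 2.27 (SE 0.53, limma adjusted p = 0.0259). The Fgf10+/- groups did not overlap and the wild-type groups did. The lowest hyperoxia values of Chad, 4.43 and 4.49, lie near the median of all values (4.34) and may be background. Aldh1a1 changed by -0.04 in both genotypes, neither passing. Ephx1 (r = 0.976 with Cyp2f2) was higher under hyperoxia, by 1.31 in Fgf10+/- and 1.09 in wild-type pups. Neither change passed (limma adjusted p = 0.238 and 0.166).

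Mucous and defence genes of the airway made up a list of 21 measured genes. Under hyperoxia 18 were lower and 3 higher in Fgf10+/- pups, with a median of -1.90, and 15 had an unadjusted p under 0.05 (16.7% of all genes did). In wild-type pups 14 were lower and 7 higher, with a median of -0.40, and 6 had an unadjusted p under 0.05 (18.2% of all genes did). The interaction was below 0 for 20 of 21, with a median of -1.04, and 0 of 21 passed by limma (6 with an unadjusted p under 0.05, against 4.11% of all genes). In Fgf10+/- pups Spdef, a transcription factor of mucous secretory cells, fell by 2.50 (SE 0.49, limma adjusted p = 0.0168), and Slc26a4, an anion exchanger, fell by 2.35 (SE 0.49, limma adjusted p = 0.0208). Slc26a4 measured 3.86 and 4.18 in Fgf10+/- hyperoxia, against 5.10 to 7.86 in Fgf10+/- normoxia. Its hyperoxia values lie below the median of all values (4.34) and may be background. Muc20, named after its values were seen, fell by 2.81 (limma adjusted p = 0.0417). Spdef measured 4.42 and 5.06 in Fgf10+/- hyperoxia against 6.46 to 7.86 in Fgf10+/- normoxia, with no overlap, and in wild-type pups its change of -0.92 did not pass (limma adjusted p = 0.192). The Spdef value of 4.42 lies near the median of all values (4.34) and may be background.

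Of the 21 genes of that list, 3 were called lower in Fgf10+/- and 0 in wild-type pups. In either direction 2.45% and 3.13% of all genes were called. Pigr, the receptor that carries polymeric immunoglobulin across epithelia, was the 1 gene of that list called higher, in both genotypes. It measured 13.69 and 14.25 in Fgf10+/- hyperoxia and 11.50 to 12.15 in Fgf10+/- normoxia, and rose by 2.07 (SE 0.47, limma adjusted p = 0.0305). In wild-type pups it measured 12.98 to 14.73 in hyperoxia and 10.73 to 12.53 in normoxia, and rose by 2.44 (SE 0.35, limma adjusted p = 8.56e-04). Neither pair of groups overlapped. Between the genotypes in normoxia 19 of 21 genes of the list were higher in Fgf10+/- pups, with a median of 0.69, and 0 passed by limma (6 with an unadjusted p under 0.05, against 6.03% of all genes). The within-group correlation of the list's median with the 8 genes ran from r = 0.467 to 0.881, and 6 of 8 passed by r and by rho.

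Regulators of the airway epithelium gave 1 call among 18 genes for hyperoxia in Fgf10+/- pups, where 2.45% of all genes were called. In wild-type pups they gave 0, where 3.13% of all genes were called. Ehf, an ETS factor of secretory epithelia, fell by 2.56 in Fgf10+/- hyperoxia (SE 0.63, limma adjusted p = 0.0422), with 5.51 and 5.85 there against 7.26 to 8.73 in Fgf10+/- normoxia. In wild-type pups the Ehf change was -1.23 (adjusted p = 0.172). Of the 18 regulators, 13 were lower in Fgf10+/- and 12 in wild-type hyperoxia.

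Over all genes, the ones whose within-group deviations were most like those of the 8 were Reg3g (mean r = 0.885 over the 8 genes and 16 arrays), Lrrc36, Krtap1-5, Cfap298, Wdr60, Cdhr3, Slc25a17, Nek5, Vwa3a and Stim1 (0.869). They were chosen for this likeness, so no test is given. Reg3g measured 6.44 and 9.45 in Fgf10+/- hyperoxia, 4.77 to 12.65 in wild-type hyperoxia, 12.05 to 13.49 in Fgf10+/- normoxia and 8.49 to 12.88 in wild-type normoxia. Its hyperoxia changes of -4.82 in Fgf10+/- and -2.38 in wild-type pups did not pass (limma adjusted p = 0.207 and 0.400). Most like Scgb1a1 alone were H60c (r = 0.946), Herc3, Moap1, Dip2b and Cfap97 (0.905), against the compressed scale of that gene.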

How the data were processed

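RNA of 16 samples was measured on single-colour Agilent arrays with Cy3, per the labels' protocols. The deposited values are log2 intensities, as inferred from their range of -0.396 to 15.982, and the authors had already normalized them: at any rank, sorted arrays differed by at most 0.204. Software, background correction, slides and detection flags are not given in these sources, so batches were not tested. Of 62976 features, 65 lacked a value. The platform annotation gave 1 symbol to 31465 features, none to 31511 and several to 0, and symbols were updated through RefSeq tables (29050 by accession, 2061 by symbol, 349 by synonym, 5 kept). Bpifa1 is listed there under an older symbol and was found by its accession. The 31439 named features used covered 20725 genes.

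Group means were fitted with limma 3.58.1 in R 4.3.3 on all 16 arrays, with 5 contrasts and Benjamini-Hochberg adjustment over 20725 genes, and adjusted p under 0.05 counted as a call. The fit was tested on simulated data. Deviations from group means were correlated with 100000 permutations within groups, and single genes were tested by exact permutation (scipy 1.17.1). Named genes are the 8 members, up to 3 called genes of each list (otherwise its 2 brightest), Sftpc, Foxj1, and the genes most like the members. Only some of the genes this rule allows are printed. Fgf10, Gsto1, Aldh1a1, Ephx1, Adh7, Sult1d1, Scgb1c1, Muc20, Hba-a1, Col1a2 and, outside its own comparison, Egfl7 fall outside it and were chosen after their values were seen. The 14 marker lists held 176 genes, of which 169 were measured, with 1 gene in more than 1 list. The members and lists were chosen with earlier results of these data known. Alternatives were median centring, the mean of all features, a filter on dim genes, a fit on only the groups compared, array weights, robust eBayes, a replicate block, leaving out the 4 arrays highest in thymocyte genes, leaving out each array, and a ciliated covariate added after the data were seen. Promoters are from RefSeq (GRCm38.p6).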

Additional observations from a re-analysis of the deposited data

Results flagged for a closer look

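In 24 combinations of gene and group with 4 or more arrays, 2 held an array whose distance from the nearest other exceeded Dixon's critical value at the 95% level, and chance alone marks about 1 in 20. Both were the lowest array of wild-type normoxia, replicate 1. Cbr2 measured 15.75 there, against 15.96 in the nearest other array of the group, and lay close to the top of the scale. Gabrp measured 5.46, against 6.64 in the nearest other. In the same array the median of the smooth muscle and pericyte genes was 7.91, against 5.46 to 5.85 in the other 3 arrays of the group, and the median of the ciliated genes was 6.25, against 7.15 to 8.45. The part of these in the low values was not tested.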

How the results depend on the processing

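The number of the 8 genes called was 0 in all 5 comparisons under each planned setting, with 1 exception, and the range over leaving out single arrays was 0 to 0. Fitting only the groups compared called 2 genes for hyperoxia in Fgf10+/- pups, Muc5b (limma adjusted p = 0.0107) and Bpifa1 (0.0332), and the cause was not tested. The share of all genes called in that fit is not given, so the 2 calls have no background beside them. The interaction involves all groups, so that setting gave no value for it. The count of all genes called was 649 for hyperoxia in wild-type pups (216 to 1094 over settings other than single arrays left out) and 507 in Fgf10+/- pups (14 to 816, with 14 when the 4 arrays highest in thymocyte genes were left out, which leaves 1 Fgf10+/- normoxia array), and 2 for genotype in normoxia (0 to 11). Of 352 log2 changes recomputed under other settings, 22 changed sign, and of 640 with 1 array left out, 33 did. None of these had been called. With the ciliated median as a covariate, hyperoxia changes turned to 0.23 for Scgb3a2, 0.53 for Cyp2f2, 0.54 for Gabrp and 0.65 for Bpifa1 in wild-type pups, and to 0.084 for Scgb1a1, 0.71 for Cyp2f2 and 0.22 for Cbr2 in Fgf10+/- pups. Genotype differences turned to -0.11 for Scgb3a2 and -0.22 for Cyp2f2 in normoxia and -0.043 for Cyp2f2 in hyperoxia. Same-numbered arrays deviated together weakly or not at all (18 pairs, r from -0.16 to 0.24, 4 over 0.1). The labels do not say whether a number marks a shared litter or day, and these correlations cannot settle it. With the replicate number as a block, 0 of the 8 genes were called in each comparison, hyperoxia changes in Fgf10+/- pups were 0.22 for Cyp2f2 and 0.033 for Cbr2, genotype differences in hyperoxia were 0.61 for Scgb3a1, 0.39 for Scgb3a2, 0.27 for Gabrp and 1.38 for Muc5b, and the interaction was 0.076 for Scgb3a2. The mean of all features gave 0.15 for Cbr2 under hyperoxia in Fgf10+/- pups and 0.0076 for Scgb1a1 between genotypes in normoxia. Array weights gave -0.0045 for Cyp2f2 between genotypes in normoxia. Without the 4 arrays highest in thymocyte genes, 3 of them Fgf10+/- normoxia, that group rests on 1 array (replicate 3), whose spread is taken from the rest. There Cbr2 differed by 0.079 between genotypes in normoxia and the Cyp2f2 interaction was -0.29. Leaving out 1 array gave ranges that cross 0: for hyperoxia in Fgf10+/- pups, -0.63 to 0.23 for Cyp2f2 and -0.29 to 0.041 for Cbr2. For genotype in normoxia they were -0.070 to 0.61 for Scgb3a2, -0.28 to 0.30 for Cyp2f2 and -0.067 to 0.026 for Cbr2. For genotype in hyperoxia they were -2.74 to 1.93 for Scgb3a1, -0.87 to 0.77 for Scgb3a2, -0.23 to 0.63 for Cyp2f2, -0.47 to 0.10 for Gabrp and -1.39 to 0.90 for Muc5b. For the interaction they were -3.94 to 0.73 for Scgb3a1, -1.18 to 0.46 for Scgb3a2 and -0.31 to 0.55 for Cyp2f2. The causes of these turns were not tested. Signal may limit Scgb1a1 and Cbr2 at the top of the scale. At the bottom it may limit Bpifa1 (lowest value 2.60) and Gabrp (lowest value 4.54), which was not tested. The highest Scgb3a1 values lay 0.20 below the top of their arrays, and the lowest Muc5b value was 4.85, near the median of all values (4.34). These 2 genes may be limited there too.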
